A study of Mus musculus with 8 samples.

Results

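The genes described here are 40 genes of mitosis, the step in which a cell divides its copied chromosomes between 2 daughters. They were chosen by name from textbook roles: kinases and cyclins of mitotic entry, the spindle checkpoint, the kinetochore, spindle motors, anaphase and the cleavage furrow. The choice was made with earlier results of these data known. A gene entered with a probe that carries its symbol alone, and all 40 had one, among 19938 genes measured in this way. The RNA came from single mouse embryos at embryonic day 9.5. It was taken from their primordial germ cells (PGCs), which later give rise to the gametes and at this age are migrating. There were 4 embryos homozygous for the Y324C allele of Ror2, a receptor tyrosine kinase for Wnt5a, and 4 WT embryos (Ror2+/+), with 1 microarray per embryo. All came from crosses of heterozygous Ror2 Y324C/+ parents on a mixed strain background. The fathers also carried the Oct4-ΔPE reporter (Tg/Tg), which marks PGCs with GFP, so by the cross both groups inherit it. The cells were sorted by GFP from the trypsin-digested posterior part of each embryo, and the Ror2 allele is present in every tissue of the mutant embryos. The mutant embryos 1 to 4 had 24, 22 to 23, 23 and 21 to 22 somites, and the WT embryos 1 to 4 had 25, 25, 22 and 21. Somites are the paired blocks of the trunk, added one after another, whose number stages the embryo.

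Entry into mitosis is driven by the kinase Cdk1 with its A and B cyclins, which Wee1 holds back and Cdc25 phosphatases release. Unattached kinetochores then hold Cdc20 through the spindle checkpoint, and once all are attached, Cdc20 and the anaphase-promoting complex mark securin (Pttg1) and B cyclins for destruction, which frees separase (Espl1) to part the sister chromatids. Most transcripts of this programme rise late in the cell cycle, so in a sorted population their level follows how many cells are near division. Mouse PGCs pass through a period of arrest in G2 early in migration and multiply afterwards. In such bulk samples, fewer dividing cells and less RNA per dividing cell cannot be told apart.

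The labelled cell type was checked against 16 PGC markers. In every array 15 of them lay above the median of all gene means (5.61), and Fut4 lay below it, at 3.94 to 4.67. Pou5f1 (Oct4) had log2 values of 11.37, 11.13, 11.32 and 11.15 in mutants 1 to 4, against 11.32, 11.09, 10.91 and 11.22 in WT 1 to 4, and Dppa3 (Stella) ran from 11.33 to 11.57 in mutants and from 11.07 to 11.56 in WT. The mean of the 16 ran from 9.65 to 9.75 in mutants and from 9.55 to 9.76 in WT. WT 3 stood apart from the other arrays. It was lowest for the PGC markers, and had the narrowest spread of values over genes (SD 1.77, against 1.82 to 1.95 in the other 7 arrays). It had the highest mean of 9 primitive erythroid genes (5.54, against 4.84 to 5.31) and of 12 macrophage genes (5.17, against 4.66 to 4.97). The means of trunk mesenchyme (5.49, against 4.99 to 5.28) and neural tube genes (5.73, against 5.48 to 5.70) were also highest in WT 3. So was the median of all genes (5.73, against 5.51 to 5.65). Endothelial and hindgut genes had their highest mean in WT 4. WT 3 and mutant 4 also differed from the rest in sex-linked RNA, with Xist at 6.31 in mutant 4 and 7.07 in WT 3 and from 3.50 to 4.11 elsewhere. The mean of 3 Y-linked genes was 3.71 in mutant 4 and 3.74 in WT 3, and from 7.21 to 7.73 elsewhere. By these values WT 3 and mutant 4 read as female and the other embryos as male. Sex was not entered in the fits. At 22 and 21 to 22 somites, WT 3 and mutant 4 were also among the youngest embryos, so sex and somite number are partly mixed in these arrays. The part of sex in the slopes was not tested. Differences that move by over 1.5 times without WT 3 are given below with and without it.

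The means of all 40 members lay above that median, the lowest being that of Cdc25b (5.86), so all 40 passed the filter on low values. Cdc25b lay below the median in mutant 2, at 5.49. Their range over the 8 arrays, the highest value minus the lowest, had a median of 0.71 log2 units, against 0.84 for the 9969 genes with a mean above that median and 0.72 for all genes. For 6 of the 40 the range exceeded 1. Some members varied little. Cenpf, a large protein of the outer kinetochore, had a range of 0.33, and Ccna2 (cyclin A2) one of 0.34, with values from 10.21 to 10.27 in mutants and from 10.08 to 10.42 in WT. The kinesin Kif11, which pushes the spindle poles apart, had a range of 0.39, and Ube2c, the ubiquitin-conjugating enzyme of the anaphase-promoting complex, one of 0.40. Bub1 (0.42), Racgap1 (0.45), Top2a (0.48), Plk4 (0.56) and Incenp (0.66) had the smallest ranges of their roles. Ranges were wide for the chromosome-bound kinesin Kif4 (1.39), for Ccnf, an F-box cyclin of a ubiquitin ligase (1.34), for the kinase Plk1 (1.27) and for separase Espl1 (1.23), and the widest of the other roles were those of Birc5 (0.87), Cenpa (0.84), Bub1b (0.83), Mki67 (0.60) and Ect2 (0.57).

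The arrays did not share the low values evenly. WT 3 held the lowest value of 14 members and WT 4 that of another 14, so that the remaining 6 arrays together held the lowest of 12. Over all genes, WT 3 was lowest for 12.1% and WT 4 for 11.4%, and WT 3 was highest for 24.2%. The highest values of the members were spread more widely, with 10 in mutant 2, 7 in WT 2, 6 in mutant 4 and from 2 to 5 in each of the other arrays. The mean over the 40 members ran from 8.97 to 9.06 in mutants 1 to 4, and was 9.02, 9.08, 8.76 and 8.84 in WT 1 to 4. The mutants thus lay inside the span of the WT embryos, of which those of 25 somites were higher than those of 22 and 21.

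**Figure D1:**
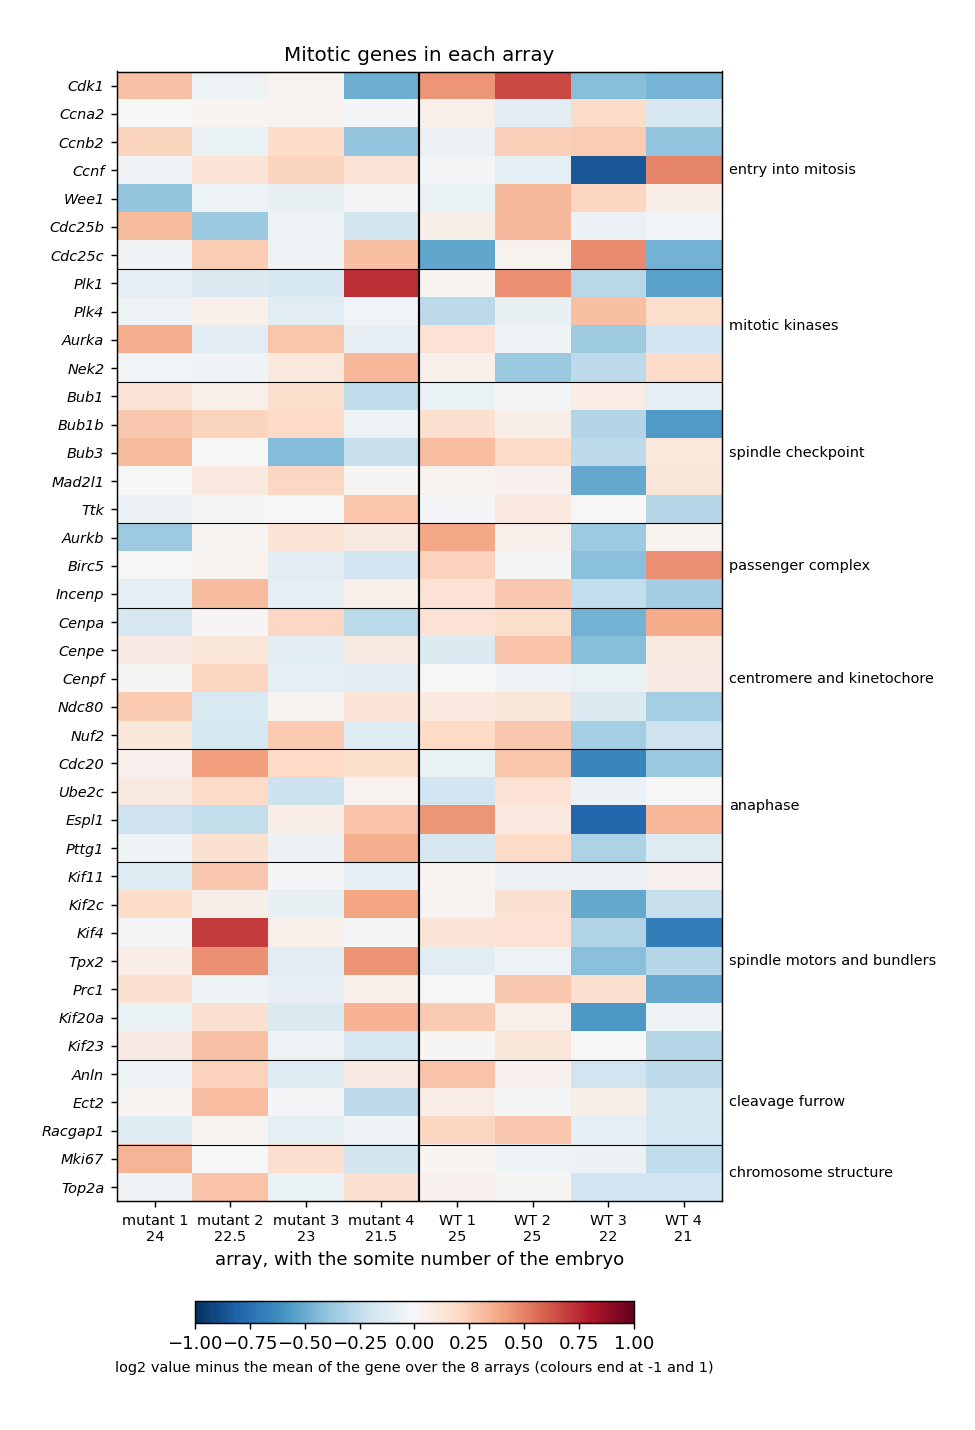
Each of the 40 mitotic genes (rows, by role) in each array (columns, mutants on the left, WT on the right, with somite number). Colour is the log2 value minus the mean of the gene over the 8 arrays, and the blue cells gather in WT 3 and WT 4, which hold the lowest value of 14 members each.

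The first comparison asked whether mitotic transcripts differ between Ror2 mutant and WT PGCs. None of the 40 passed the limma test over all genes (0 of 40 with an adjusted p under 0.05, the smallest being 0.973), and 1 had an unadjusted p under 0.05, where 4.68% of all genes did. That member lay above 0, as did 2.72% of all genes with such a p, while 1.96% had such a p below 0. Of the members, 29 lay above 0 and 11 below, where 44.6% of all genes lay above 0, with a median difference of 0.07 log2 units, against a median of -0.02 over all genes and 0.04 over the genes with a mean above the median, of which 57.4% lay above 0. After quantile normalization, which gives all arrays one distribution, 21 lay above 0 and the median was 0.02, against 0.01 over all genes. Without WT 3 it was 26 and 0.04, with 50.2% of all genes above 0. No member had mutant values wholly above or wholly below the WT values, where 1.08% and 1.44% of all genes had. Of the 40 intervals of 95%, that of Kif4 reached farthest from 0, to 0.86. The markers of blood cells lay mostly on the other side: 0 of 9 primitive erythroid genes (median -0.24) and 3 of 12 macrophage genes (median -0.12) lay above 0. Without WT 3 there were 2 of 9 (median -0.11) and 5 of 12 (median -0.04). The part of such cells in the differences was not tested.

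Among the spindle motors and bundlers, all 7 members lay above 0 (median 0.15), of which Kif20a was at 0.15 with WT 3 and at -0.02 without it. Tpx2, which targets Aurora A to spindle microtubules and activates it, had log2 values of 8.59, 8.98, 8.40 and 8.97 in mutants 1 to 4, against 8.41, 8.48, 8.10 and 8.23 in WT 1 to 4. Mutants 1, 2 and 4 exceeded every WT value, and mutant 3 lay just under WT 1. The difference was 0.43 ± 0.17 (SE), or 1.35-fold, with an unadjusted p of 0.0262 and a limma adjusted p of 0.973. It was 0.37 without WT 3 and 0.29 without WT 3 and mutant 4, where the unadjusted limma p was 0.154. With 1 array left out at a time it ran from 0.35 to 0.54, and the unadjusted p exceeded 0.05 without WT 3, WT 4, mutant 2 or mutant 4. Kif2c, a kinesin that takes microtubule ends apart, had 9.43, 9.30, 9.17 and 9.63 in mutants and 9.27, 9.39, 8.73 and 9.01 in WT, a difference of 0.28 ± 0.17. Without WT 3 it was 0.16, and without WT 3 and mutant 4 it was 0.078. Kif4 had 7.12, 7.83, 7.18 and 7.12 in mutants and 7.26, 7.28, 6.84 and 6.44 in WT (0.36 ± 0.23). Mutant 2 was the highest for Kif4 and the other 3 mutants lay within the WT span.

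Of the genes that start anaphase, 3 of 4 lay above 0. Cdc20, the activator of the anaphase-promoting complex, had 9.25, 9.62, 9.41 and 9.38 in mutants, against 9.15, 9.49, 8.55 and 8.84 in WT. The 2 low values were those of WT 3 and WT 4, and WT 2 lay inside the mutant span. The difference was 0.41 ± 0.20 (1.33-fold, unadjusted limma p 0.0624), and 0.26 without WT 3 (p 0.179). Securin Pttg1 differed by 0.20 ± 0.16, Ube2c by 0.05 ± 0.14 and Espl1 by -0.05 ± 0.26, which without WT 3 were 0.13, 0.04 and -0.32 in that order. In the spindle checkpoint 4 of 5 lay above 0. Bub1b (BubR1), a checkpoint protein that binds Cdc20, had 9.79, 9.75, 9.72 and 9.48 in mutants and 9.68, 9.58, 9.24 and 8.96 in WT, a difference of 0.32 ± 0.18. Its partner Bub3 lay on the other side, with 10.16, 9.84, 9.40 and 9.61 in mutants and 10.14, 10.03, 9.58 and 9.94 in WT (-0.17 ± 0.19, and -0.29 without WT 3). Mad2l1, Ttk and Bub1 differed by 0.16, 0.10 and 0.05, and without WT 3 by 0.015, 0.11 and 0.09.

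The regulators of mitotic entry were divided, with 3 above 0 and 4 below. Wee1, the kinase that holds Cdk1 inactive, had 8.54, 8.88, 8.86 and 8.91 in mutants, against 8.87, 9.26, 9.15 and 9.00 in WT. The difference was -0.27 ± 0.14 (0.83-fold, unadjusted limma p 0.0890), and of all members below 0 this was the one of smallest p. Mutant 1 was the lowest, and the other 3 mutants lay close to the lowest WT value. Cdc25b, one of the phosphatases that undo the action of Wee1, had 6.17, 5.49, 5.81 and 5.68 in mutants and 5.92, 6.19, 5.80 and 5.83 in WT (-0.15 ± 0.17). Its relative Cdc25c had 7.39, 7.68, 7.39 and 7.73 in mutants and 6.91, 7.46, 7.90 and 6.95 in WT (0.24 ± 0.22). Without WT 3, the highest array for Cdc25c, its difference was 0.44 (unadjusted limma p 0.0352). Cdk1 itself differed by -0.10, with an interval from -0.71 to 0.51 (-0.26 without WT 3), and its values spread widely within both groups. The cyclins Ccna2, Ccnb2 and Ccnf differed by 0.02, -0.02 and 0.23. Without WT 3, which held the lowest Ccnf value, Ccna2, Ccnb2 and Ccnf differed by 0.08, 0.06 and -0.014.

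The remaining roles held no member with an unadjusted p under 0.05. Of the mitotic kinases, Aurka differed by 0.22 ± 0.17, Nek2 by 0.19 ± 0.16, Plk1 by 0.17 ± 0.26 and Plk4 by -0.07 ± 0.15. Without WT 3 these were 0.14, 0.14, 0.10 and 0.02 in that order. In the chromosomal passenger complex, the Aurora B complex that corrects attachments, Birc5 (survivin) had 8.83, 8.86, 8.72 and 8.63 in mutants, and 9.06, 8.81, 8.41 and 9.28 in WT (-0.13 ± 0.18, and -0.29 without WT 3). All mutant values of Birc5 lay between the WT extremes. Aurkb and Incenp differed by -0.05 and 0.09, and without WT 3 by -0.18 and 0.02. The 5 genes of the centromere and kinetochore ran from -0.11 (Cenpa, the centromeric histone H3 variant) to 0.14 (Ndc80, a microtubule-binding subunit). Without WT 3, Cenpa was at -0.28, and Nuf2, Cenpe and Cenpf were at -0.07, -0.03 and -0.01, against 0.03, 0.10 and 0.01 with it. At the cleavage furrow, Racgap1, a partner of Kif23 in centralspindlin, had 8.32, 8.48, 8.35 and 8.42 in mutants, against 8.66, 8.72, 8.36 and 8.27 in WT (-0.11 ± 0.14), while Anln and Ect2 differed by 0.07 and 0.03, and without WT 3 by 0.01 and 0.05. Mki67, the coat protein of mitotic chromosomes used to mark dividing cells, had 9.50, 9.16, 9.32 and 8.98 in mutants and 9.18, 9.11, 9.10 and 8.90 in WT. Its difference was 0.17 with an interval from -0.16 to 0.49. Top2a, the topoisomerase that untangles sister chromatids, also differed by 0.17 at its probe of higher mean. The other Top2a probe, of mean 5.61 in mutants and 6.20 in WT, differed by -0.59, so the probes of this gene disagree. Over the 40 members, leaving out WT 3 turned the sign of 7 differences and moved another 20 by over 1.5 times. Kif11 and Prc1, of the spindle group, were among the latter, at 0.01 and 0.10 without WT 3 and 0.02 and 0.04 with it.

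**Figure D2:**
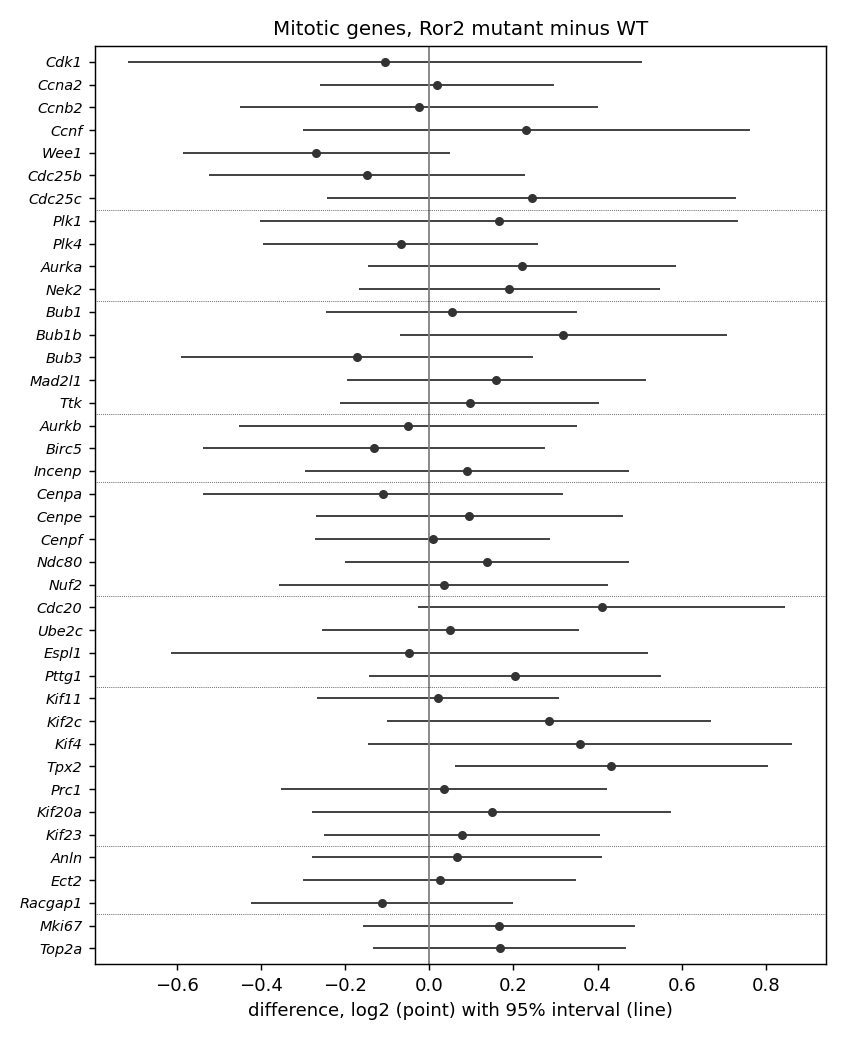
Difference of each mitotic gene, Ror2 mutant minus WT, in log2 units, with its 95% interval from limma (4 embryos per group). Tpx2 is the one member whose interval leaves out 0, and dotted lines part the roles.

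The second comparison asked how the members relate to the age of the embryo in somites, with genotype in the model. Again none passed over all genes, where the smallest adjusted p of a member was 0.255 (Cdk1, limma). An unadjusted p under 0.05 was found for 4 of the 40, all with positive slopes, where 9.74% of all genes had one in either direction, 5.02% with a positive and 4.72% with a negative slope. Among the 9969 genes with a mean above the median, 9.04% had such a positive slope, and 4 of 40 lay near that share. Another scaling changed this count: after the median of each array was subtracted, 10 of 40 members had an unadjusted p under 0.05, all with positive slopes, against 9.58% of all genes in either direction, 7.12% with a positive slope, and 12.5% with a positive slope among the genes of higher mean. Of the members, 32 had a positive and 8 a negative slope, with a median of 0.04 log2 units per somite, against -0.02 over all genes, of which 40.5% were positive, and 0.02 over the genes of higher mean, of which 58.6% were positive. After median subtraction 35 of 40 were positive (median 0.06), against 52.5% of all genes and 68.1% of the genes of higher mean. After quantile normalization 26 were positive, with a median of 0.02, and the share of all genes was not counted in that setting. Without WT 3 there were 24 and a median of 0.04, against 41.6% of all genes and a median of -0.015.

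This count rested on the oldest embryos. Without WT 1 and WT 2, the pair of 25 somites, 16 of 40 slopes were positive and the median was -0.04, with 48.9% positive over all genes. Slopes of the markers of other cell types were mostly negative, as were those of 11868 of all 19938 genes. Of the 9969 genes of higher mean, 5839 had positive slopes. Negative slopes were found for 8 of 9 primitive erythroid and 11 of 12 macrophage genes (medians of -0.12 and -0.09 per somite). The counts were 10 of 12 for trunk mesenchyme, 8 of 10 for endothelial, 8 of 11 for hindgut and 8 of 10 for neural tube genes. The mean of the erythroid genes ran from 4.90 to 5.09 in mutants and from 4.84 to 5.54 in WT. That of the macrophage genes ran from 4.66 to 4.87 in mutants and from 4.72 to 5.17 in WT. Both means lay below the median of all gene means (5.61) in every array. The part of such cells in the slopes of the mitotic genes was not tested. The PGC markers were divided, with 8 of 16 slopes positive.

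Of the members, Cdk1 had the slope of smallest p. Its log2 value was 8.48 at 21 somites, 8.46 at 21.5, 8.52 at 22, 8.89 at 22.5, 8.98 at 23 and 9.24 at 24, with 9.39 and 9.60 in the pair of embryos at 25 somites. The mutants lay among the WT embryos along this order, and the 3 youngest embryos were nearly level. The slope was 0.28 ± 0.04 (SE) log2 units per somite, or 1.22-fold, with an interval from 0.18 to 0.38, an unadjusted p of 0.000103 and a limma adjusted p of 0.255. By unadjusted p this gene ranked 7 of 19938. Fitted apart, the slope was 0.31 in mutants and 0.28 in WT. It was 0.27 without WT 3 and 0.27 ± 0.10 without both embryos of 25 somites, where the unadjusted limma p was 0.0258. Without WT 3 and mutant 4, which read as female, it was 0.25, and it ran from 0.25 to 0.32 in all other settings tried.

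The other members with an unadjusted p under 0.05 belong to the checkpoint, the kinetochore and the spindle pole. Bub1b was at 8.96, 9.48, 9.24, 9.75, 9.72 and 9.79 from 21 to 24 somites in the same order, and at 9.68 and 9.58 at 25. Its lowest values were those of the 3 youngest embryos, and it did not go on to higher values between 22.5 and 25 somites. The slope was 0.15 ± 0.04, with an unadjusted limma p of 0.00495. Nuf2, which pairs with Ndc80 in the complex that holds microtubule ends, was at 7.81, 7.88, 7.68, 7.84, 8.28 and 8.13, and at 8.22 and 8.29 at 25 somites (0.13 ± 0.05, unadjusted limma p 0.0200). All 4 embryos of 23 somites or more lay above all 4 younger ones. Aurka, the kinase of the spindle poles, was at 9.65, 9.77, 9.50, 9.74, 10.13 and 10.22, and at 10.00 and 9.82 at 25 somites (0.11 ± 0.05, unadjusted limma p 0.0480). Its highest values were those of the mutants of 23 and 24 somites. The next in order, Ndc80, was at 8.15, 8.63, 8.35, 8.34, 8.52 and 8.75, and at 8.59 and 8.61 at 25 (0.09 ± 0.05).

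**Figure D3:**
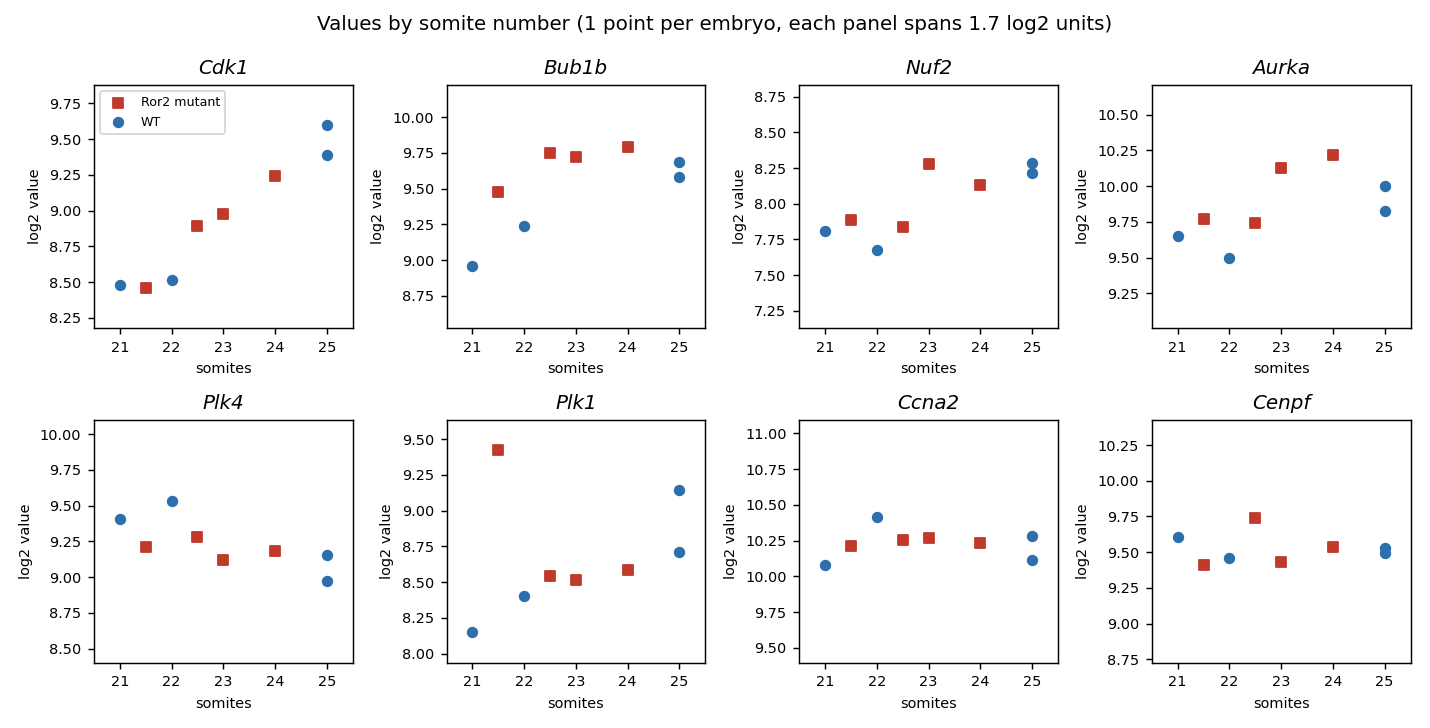
Log2 values of 8 mitotic genes against somite number, with 1 point per embryo (red squares for Ror2 mutants, blue circles for WT). Cdk1 runs from 8.46 to 9.60 along the somite axis, Plk1 is highest in the mutant of 21.5 somites, and Ccna2 and Cenpf lie nearly level.

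Negative slopes were few and small. Plk4, the kinase that licenses centriole duplication, was at 9.41, 9.21, 9.53, 9.28, 9.12 and 9.19 from 21 to 24 somites, and at 8.97 and 9.16 at 25. Its slope was -0.09 ± 0.04, with an unadjusted limma p of 0.0753. Nek2, which splits the linked centrosomes, was at 9.30, 9.44, 8.85, 9.08, 9.21 and 9.08, and at 9.16 and 8.74 at 25 (-0.07 ± 0.05). Cdc25c (-0.05 ± 0.08), Wee1 (-0.03 ± 0.05) and Kif11 (-0.01 ± 0.05) followed, the last at 9.81, 9.69, 9.71, 10.03, 9.75 and 9.64, and at 9.79 and 9.71 at 25. By role, slopes were positive for 5 of 5 checkpoint genes, 3 of 3 of the passenger complex, 3 of 3 at the cleavage furrow, 6 of 7 spindle motors and bundlers and 4 of 5 kinetochore genes, and for 3 of 4 anaphase genes, 4 of 7 regulators of entry, 2 of 4 mitotic kinases, and both Mki67 and Top2a. Of all genes, 40.5% had positive slopes, and of the genes of higher mean 58.6%. These counts depended on WT 3. Without it, the slopes of Mad2l1, Aurkb, Birc5, Cenpa, Cenpe, Espl1, Pttg1, Tpx2 and Kif20a turned negative, from -0.05 (Birc5) to -0.004 (Aurkb). That of Cdc25c turned positive. Mki67 had a slope of 0.08 ± 0.05. Over all arrays, the cyclin partners of Cdk1 had smaller slopes. Ccna2 had 0.00 ± 0.04 and Ccnb2 had 0.11 ± 0.06, with intervals from -0.10 to 0.10 and from -0.03 to 0.24, where that of Cdk1 began at 0.18. For Ccnb2 this order depended on the arrays used. Without WT 3, the slope was 0.15 for Ccnb2 (unadjusted limma p 0.0198) and 0.03 for Ccna2, against 0.27 for Cdk1. Without both embryos of 25 somites, Ccnb2 had 0.31 ± 0.11 (unadjusted limma p 0.0223), above the 0.27 of Cdk1, while Ccna2 had 0.05. Fitted apart, Ccnb2 had 0.26 in mutants and 0.07 in WT, against 0.31 and 0.28 for Cdk1. The differences between these slopes were not tested.

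**Figure D4:**
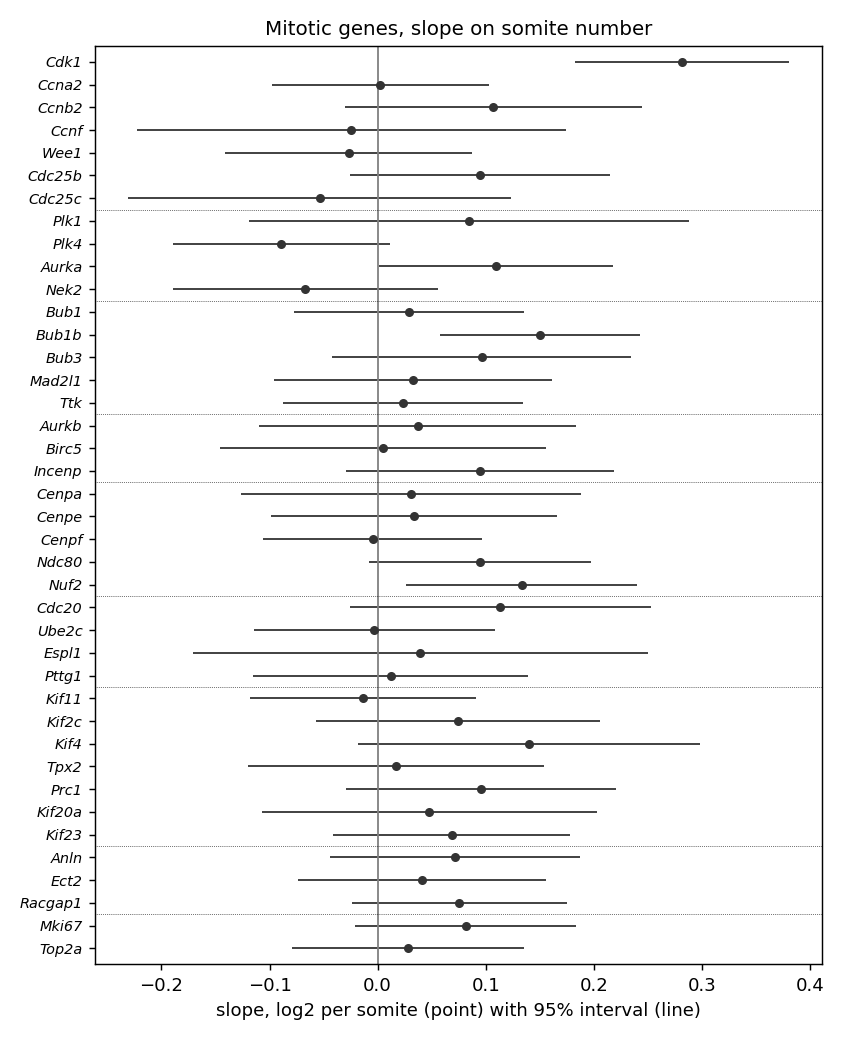
Slope of each mitotic gene on somite number, in log2 units per somite, with its 95% interval from limma (8 embryos, genotype in the model). Cdk1 lies farthest from 0, at 0.28, and 32 of the 40 points lie right of 0.

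The 4 members with an unadjusted p under 0.05 for the slope are shown with their promoters, since late cell cycle genes commonly carry a CHR element (TTTGAA or its variant TTTAAA, bound by MuvB complexes) and CCAAT boxes (bound by NF-Y) near their start. The windows run from 250 bases before to 50 after the start, from RefSeq on GRCm38.p6, with capitals marking these motifs on either strand.
Cdk1: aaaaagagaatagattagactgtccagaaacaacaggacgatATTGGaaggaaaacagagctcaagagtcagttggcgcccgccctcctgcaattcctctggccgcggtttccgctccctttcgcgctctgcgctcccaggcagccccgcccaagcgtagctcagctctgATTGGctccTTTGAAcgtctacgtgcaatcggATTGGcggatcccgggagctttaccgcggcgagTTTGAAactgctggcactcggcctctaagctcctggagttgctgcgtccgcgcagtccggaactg
Bub1b: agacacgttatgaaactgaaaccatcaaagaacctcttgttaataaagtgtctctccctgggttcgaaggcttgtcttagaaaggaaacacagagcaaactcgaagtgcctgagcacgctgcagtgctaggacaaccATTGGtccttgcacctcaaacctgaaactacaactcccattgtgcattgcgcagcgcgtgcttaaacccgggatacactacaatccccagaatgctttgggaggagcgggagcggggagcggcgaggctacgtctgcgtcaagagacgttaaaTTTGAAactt
Nuf2: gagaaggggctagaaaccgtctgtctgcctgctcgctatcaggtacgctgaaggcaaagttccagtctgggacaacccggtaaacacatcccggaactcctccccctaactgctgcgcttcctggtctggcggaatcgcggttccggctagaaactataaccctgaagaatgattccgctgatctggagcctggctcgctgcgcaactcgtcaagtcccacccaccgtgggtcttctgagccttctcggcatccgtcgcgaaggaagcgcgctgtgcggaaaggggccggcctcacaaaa
Aurka: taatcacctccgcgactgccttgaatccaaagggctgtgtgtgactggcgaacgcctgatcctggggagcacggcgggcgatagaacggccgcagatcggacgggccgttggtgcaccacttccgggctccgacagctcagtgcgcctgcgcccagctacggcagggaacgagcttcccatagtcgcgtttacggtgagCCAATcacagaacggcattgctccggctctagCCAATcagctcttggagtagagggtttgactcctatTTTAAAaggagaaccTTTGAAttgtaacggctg
The Cdk1 window (chr10:69352863-69353162, minus strand) holds TTTGAA from positions -71 and -15 relative to the start, and 3 CCAAT boxes on the other strand. The Bub1b window (chr2:118597961-118598260, plus strand) holds 1 TTTGAA, from position 41 of the transcript, and 1 CCAAT box on the other strand. In the Aurka window (chr2:172370521-172370820, minus strand) there are 2 CCAAT boxes, a TTTAAA and a TTTGAA. The Nuf2 window (chr1:169531415-169531714, minus strand) holds none of these letters. The 4 windows thus did not share one set of matches.

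A promoter window was at hand for 33 of the 40 members, the first listed where there were several. TTTGAA occurred in 24 of the 33 (72.7%), against 18.1% of 27025 promoters of the same length, and within 50 bases of the start in 22 (66.7%), against 4.92%. CCAAT occurred in 25 (75.8%, against 37.9%) and TTTAAA in 9 (27.3%, against 13.2%), and 22 held CCAAT with either of the other motifs (66.7%, against 10.9%). By their letters, TTTAAA and TTTGAA cannot overlap each other, and either can share an end base with a CCAAT box. Plk4, with the negative slope of smallest p, held a TTTAAA but neither TTTGAA nor CCAAT. These matches describe the letters in the windows and do not show binding.

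The last fit asked whether the slope on somite number differs between the genotypes. No member passed (0 of 40, smallest adjusted p 0.989, limma), and 1 had an unadjusted p under 0.05, where 4.52% of all genes did. That member lay below 0, as did 2.38% of all genes with such a p, while 2.14% lay above. The mutant slope was the higher in 14 of 40 members, against 53% of all genes. Slopes were positive for 18 of 40 members in mutants and for 31 of 40 in WT, against 46.3% and 40.1% of all genes. The median slopes were -0.02 in mutants and 0.07 in WT, against -0.01 and -0.02 over all genes. The 4 mutants span 21.5 to 24 somites and the 4 WT embryos 21 to 25, so the mutants cover the shorter span. In 15 members both slopes were positive and in 6 both were negative. Over the 19938 genes, both were positive in 4298 (21.6%) and both negative in 7013.

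Plk1, which acts in centrosome maturation, checkpoint release and cytokinesis, had the smallest p and the largest difference of slopes of the 40. It was at 8.59, 8.54, 8.51 and 9.42 in mutants 1 to 4, against 8.71, 9.14, 8.40 and 8.15 in WT 1 to 4. The single high mutant was the youngest (21.5 somites), while in WT the high values were those of 25 somites. The slope was -0.32 in mutants and 0.19 in WT, a difference of -0.51 ± 0.16 with an unadjusted p of 0.0118 and a limma adjusted p of 0.989. Without mutant 4 the difference was -0.15 (unadjusted limma p 0.473). By p, Tpx2 came next, with slopes of -0.19 in mutants and 0.07 in WT, a difference of -0.26 ± 0.13. It also had high values in the youngest mutant (8.97) and in mutant 2 (8.98).

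**Figure D5:**
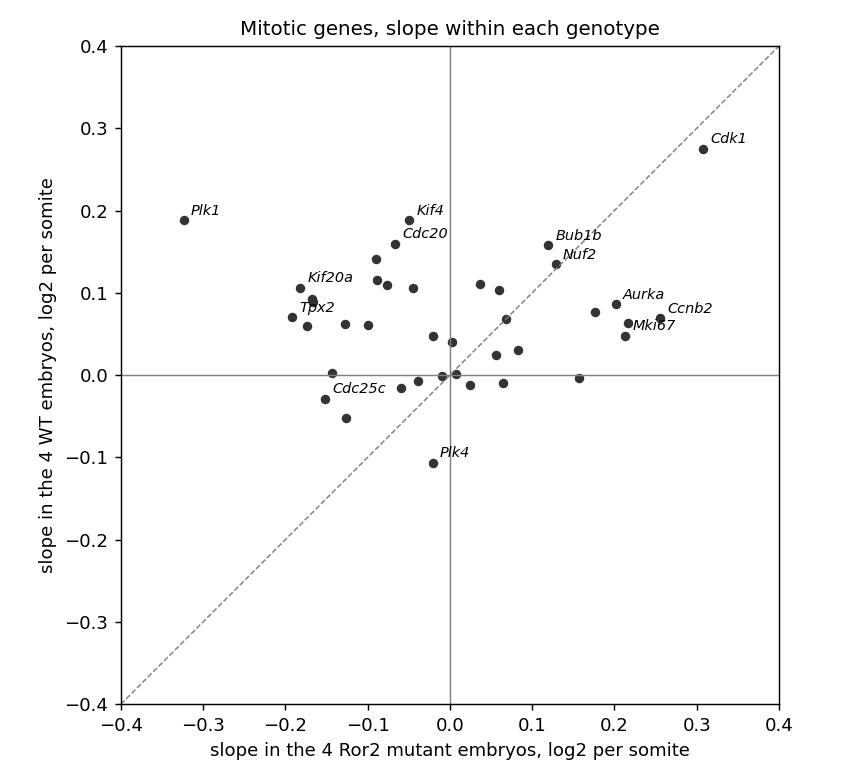
Slope on somite number in the 4 Ror2 mutant embryos (x axis) against the slope in the 4 WT embryos (y axis), log2 units per somite, with 1 point per mitotic gene and a dashed line of equal slopes. Cdk1, Bub1b and Nuf2 lie near the line at positive slopes, and Plk1 lies farthest from it, at -0.32 in mutants and 0.19 in WT.

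The rest of the mitotic machinery was read from lists of its complexes. For mutant minus WT, 10 of 16 genes of the anaphase-promoting complex, 10 of 15 of cohesin, 7 of 8 of condensin and 18 of 27 other kinetochore genes lay above 0, with medians of 0.05, 0.11, 0.14 and 0.07, while the centrosome list had 11 of 23 above 0 (median -0.01). Of all genes, 44.6% lay above 0, and of the genes of higher mean 57.4%. None of the genes in these lists passed over all genes (limma). The smallest p-values were those of Cdc26, a small subunit of the anaphase-promoting complex (0.74 ± 0.24), Ncapg, a condensin subunit (0.38 ± 0.14), Pmf1 of the Mis12 complex (0.48 ± 0.18) and Stil of centriole assembly (-0.44 ± 0.19), each with an adjusted p of 0.973. Ncapg had 9.35, 9.26, 9.04 and 9.01 in mutants, against 8.92, 8.91, 8.54 and 8.78 in WT, so that all mutants lay above all WT embryos. The same held for Pmf1, by a narrow gap (8.965 against 8.960), and for Prim1 of the replication list. For Stil all mutants lay below all WT embryos. Over all genes, 1.08% had mutant values wholly above the WT values and 1.44% wholly below. Second in their lists were Anapc2 (0.31 ± 0.23), Ncapd2 (0.26 ± 0.14), Cenpo (0.60 ± 0.27) and Tubg1 (-0.64 ± 0.29), and in cohesin Esco1 (-0.30 ± 0.14) and Smc1a (0.26 ± 0.14). The regulators that switch on mitotic genes had 6 of 14 above 0 (median -0.05), led by Mybl2 (0.27 ± 0.15) and Nfya (0.29 ± 0.20). Genes of the phase before, G1/S and replication, had 14 of 24 above 0 (median 0.04), led by Prim1 (0.44 ± 0.16) and Mcm3 (0.29 ± 0.16).

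For the slope on somite number, 15 of 16 genes of the anaphase-promoting complex were positive (median 0.08), 14 of 15 of cohesin (0.03), 6 of 8 of condensin (0.04), 20 of 27 of the kinetochore (0.06) and 17 of 23 of the centrosome (0.05). Positive slopes were found for 40.5% of all genes and 58.6% of the genes of higher mean. The list counts were not taken without WT 3 or without WT 1 and WT 2, where the count of the 40 members fell to 24 and 16. None of the genes in these lists passed over all genes (limma). Fzr1 (Cdh1), which activates the anaphase-promoting complex after Cdc20, had a slope of 0.22 ± 0.05 and an adjusted p of 0.340. Fzr1 was at 8.26, 8.08, 8.37, 8.82, 8.63 and 8.83 from 21 to 24 somites, and at 9.11 and 9.02 at 25, an order close to that of Cdk1. Knl1, the kinetochore scaffold that recruits Bub proteins, had a slope of 0.25 ± 0.06, Anapc16 0.25 ± 0.07, Cenpj 0.34 ± 0.09, Cenpu 0.32 ± 0.10, and the cohesin factors Esco2 and Mau2 had 0.13 ± 0.04 and 0.19 ± 0.07. Ncapg2 (0.15 ± 0.06), Ncapd3 (0.09 ± 0.05) and Haus7 (0.21 ± 0.09) followed. Cenpj and Cenpu were each far lowest in WT 4, the embryo of 21 somites. There Cenpj was at 4.44, against 5.13 to 6.49 in the other arrays, and Cenpu at 5.03, against 6.10 to 7.32. The regulators of mitotic transcription had 6 of 14 positive (median -0.02), with Lin54 at 0.16 ± 0.10 and Foxm1 at 0.12 ± 0.09. The G1/S list had 18 of 24 positive (0.05), led by Ccne1 (0.17 ± 0.07) and Prim1 (0.11 ± 0.04), against 32 of 40 of the mitotic genes. Lists and members were not tested against each other.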

How the data were processed

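Per the labels, 8 microarrays measured total RNA of sorted PGCs, 1 embryo per array. RNA was amplified and labelled with biotin (NuGEN Ovation FFPE WTA and Encore), per the labels' protocols. The deposited values, 1 for each probe on each array, carry no unit, and their range is that of a log2 scale, on which they were read. For the background correction, normalization and summarisation by the authors, the sources used here give nothing, and the deposited values entered the fits unaltered. Scanner values were not used, so no limit of detection was set. Precision is limited by the number of arrays.

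Of 35557 probes, 21789 had 1 gene symbol, 1621 several and 12147 none in the platform annotation. By gene ID, 21698 of the single-symbol probes matched RefSeq (GRCm38.p6). Each of 19938 genes was represented by its probe of highest mean, a choice among several probes for 999 genes. The fits (lmFit, then eBayes, of limma 3.58.1 under R 4.3.3) covered 3 comparisons: mutant minus WT; the slope on somite number with genotype in the model; and the product of somite number and genotype. P-values were adjusted by Benjamini-Hochberg over all 19938 genes, with a threshold of 0.05, and intervals cover 95%. The prior degrees of freedom were 4.48, 4.38 and 4.62 in that order. The midpoint was used where a label gives a somite range. The scripts were tested on simulated data.

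The members and lists were chosen with earlier results of these data known, so lists are described by counts and medians without a test. Values by array are given for Mki67, Cdk1, the 5 members per direction of smallest p in the difference and in the slope, and the 2 of smallest p in the difference of slopes. The members with the smallest and largest range over arrays in each role, and the 2 genes of smallest p in each list of other mitotic genes, were also named. Alternatives were quantile normalization, median subtraction, a filter on low genes, an intensity trend, the mean of probes, a replicate block, arrays left out, other somite codings and covariates. The largest correlation between 2 arrays was 0.981, and the smallest median absolute difference was 0.20, so no array was counted as a copy.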

Additional observations from a re-analysis of the deposited data

Results flagged for a closer look

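Within each group of 4 arrays, each member's highest and lowest value were compared with the rest by the ratio of the gap to the whole range against Dixon's 95% limit for 4 values. Of 80 groups checked, 6 passed, where chance flags about 1 in 20. Mutant 4 stood high for Plk1 (9.42, ratio 0.918) and for Ttk, a checkpoint kinase (8.87, ratio 0.843). Mutant 2 stood high for Kif4 (7.83, ratio 0.914). Mutant 1 stood low for Wee1 (8.54, ratio 0.871) and mutant 3 for Cenpe, a kinetochore motor (8.09, ratio 0.843). WT 3 stood low for Mad2l1, a checkpoint protein (9.36, ratio 0.864).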

How the results depend on the processing

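No member passed the adjusted threshold in any setting of the 3 comparisons. The number of all genes passing for the somite slope was 0, and 5 without WT 3 and mutant 4, 1 with the upper end of the somite range, and from 0 to 2 with 1 array left out (1 without WT 3, 2 without WT 4, 1 each without mutant 1 and mutant 4); it was 0 in all settings for the difference and for the difference of slopes. The median slope of the members was -0.038 without WT 1 and WT 2, a setting chosen after seeing the data, as was the SD over genes as a covariate. The Cdk1 difference turned positive without WT 1 (0.026), WT 2 (0.097) or mutant 4 (0.041) and with the somite covariate (0.036), with a lowest value of -0.277 with 1 array left out (without WT 4) and of -0.369 with the SD covariate, and Birc5 without WT 4 (0.00015; lowest with 1 array left out -0.290, without WT 3). The slope of Cdc25c turned without WT 1 (0.0056), without WT 3 (0.0094), without WT 3 and mutant 4 (0.036) and with the SD covariate (0.081; lowest with 1 array left out -0.207, without WT 4), that of Wee1 without WT 1 (0.0031), without mutant 1 (0.00023) and with the replicate block (0.053; lowest with 1 array left out -0.073, without WT 2), that of Nek2 with the replicate block (0.0063), and that of Kif11 after median subtraction (0.011) and without mutant 1 (0.00095; lowest with 1 array left out -0.026, without mutant 4). The cause of these turns was not tested. Of 456 recomputed values of named members, 441 kept direction and side of the threshold. Genes at an unadjusted p under 0.05 numbered from 538 to 1715 for the difference (934; 1715 without WT 1) and from 675 to 2318 for the slope (1942; 675 with the replicate block), and members at that p from 0 to 3 and from 1 to 10. Of the members, 4 had that p for the slope, and 10 (25%) after median subtraction, against 9.58% of all genes. Median subtraction moved the median of all genes to 0.04 for the difference, from -0.02, and that of the members to 0.13. Between same-numbered arrays, deviations from the group means had correlations of -0.05, 0.04, -0.19 and 0.10. Such correlations cannot show whether same-numbered embryos were littermates or handled together. With the replicate block, the Cdk1 slope was 0.29 with an unadjusted limma p of 0.0478.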
